A study of Mus musculus with 9 samples.

Results

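The subject is a set of 44 genes of the interferon response, chosen by symbol and measured by RNA-seq in lymphatic endothelial cells (LECs), which line lymphatic vessels. Of the 44, 43 were among the 23018 genes analysed and 39 passed the filter on low counts, while Mx1 was not analysed here. Male wild-type C57/Bl6 mice aged 10 weeks and left untreated gave LECs of 3 tissues, meninges, diaphragm and skin, sorted as cells negative for the leukocyte antigen CD45 and positive for CD31 and podoplanin. Each tissue gave 3 libraries, 9 in all, and no group carried a transgene or a treatment. Whether separate animals or pools stand behind the libraries is not in the labels, and p-values here reflect the spread among the 9 libraries, which may be technical.

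Interferons are secreted proteins that cells release when they sense virus or foreign nucleic acid. Type I interferons bind the receptor IFNAR1-IFNAR2 and type II interferon binds IFNGR1-IFNGR2, and kinases at these receptors activate STAT factors, which together with IRF9 and other IRF factors switch on interferon-stimulated genes. Those genes encode RNA sensors, enzymes that degrade RNA or stop translation, membrane proteins that block virus entry and GTPases, and many are also transcribed at a low level in cells that have met no virus. In endothelium this basal activity is part of the barrier against infection.

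LEC identity was checked first. All 9 lymphatic endothelial markers examined, among them Prox1, Flt4, Lyve1, Pdpn and Pecam1, had counts in every library, and their summed level was 6658 to 16316 normalised CPM (counts divided by library size after TMM scaling) in meninges, 14797 to 20438 in diaphragm and 20535 to 21168 in skin. Ccl21a was near the floor, at 0.156 to 1.35 CPM. Prox1, Lyve1, Pecam1 and Reln were lower in every meningeal library than in every diaphragm or skin library. Total counts ran from 26075366 to 34592850 per library. The summed level of 13 leukocyte markers was 31.0 to 65.1 CPM in meninges, 72.6 to 125.6 in diaphragm and 0.348 to 33.7 in skin. Ptprc, which encodes CD45, reached 118 CPM in Diaphragm replicate 2 and was at most 6.23 in the other libraries. The T cell gene Cd3e had counts in Diaphragm replicate 3 only. The summed level of 10 fibroblast markers was 1998, 8462 and 8583 CPM in Meninges replicates 1 to 3, 1474 to 1845 in diaphragm and 586 to 1570 in skin. Markers of mural cells (8 genes) summed to 311, 1024 and 1029 CPM in Meninges replicates 1 to 3, 271 to 490 in diaphragm and 27.8 to 196 in skin. Those of blood endothelium (10 genes) summed to 2775, 1147 and 1533 CPM in meninges, 797 to 1602 in diaphragm and 655 to 758 in skin. In meninges against skin, edgeR called 4 blood endothelial, 1 mural and 1 fibroblast marker higher (background 0.748% of all genes tested). It called 1 blood endothelial and 1 LEC marker lower (background 0.573%). Mural and blood endothelial sums were thus lower in every skin library than in every other library, fibroblast sums were highest in meninges, and leukocyte sums were highest in diaphragm. The part of these other cell types in the results was not tested.

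**Figure D1:**
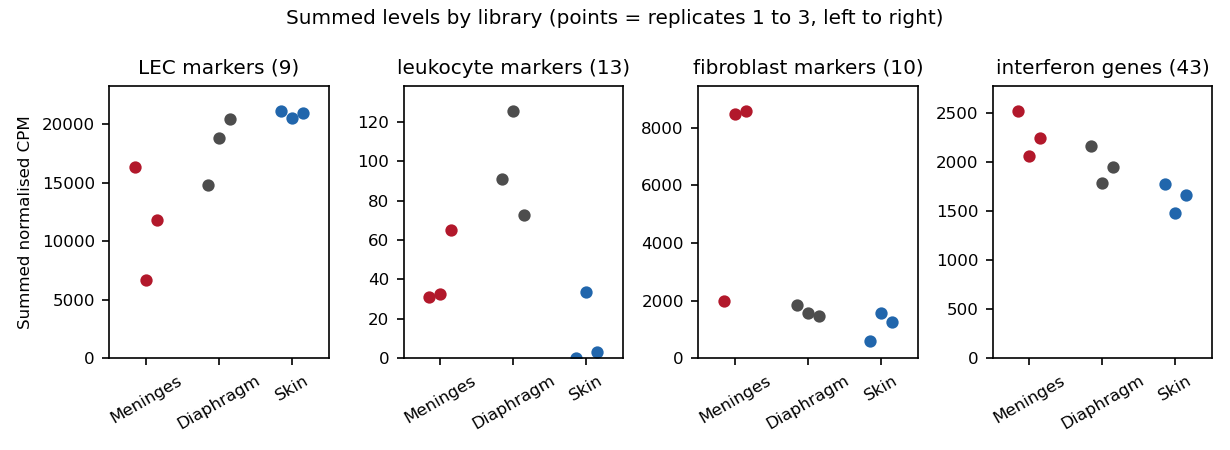
Summed normalised CPM (vertical axes, starting at 0) of 9 LEC markers, 13 leukocyte markers, 10 fibroblast markers and the 43 interferon genes with counts, 1 point per library. Interferon gene sums run from 2055 to 2518 CPM in meninges, 1783 to 2163 in diaphragm and 1477 to 1775 in skin.

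The median level of the set was highest in meningeal, intermediate in diaphragm and lowest in skin LECs. This median over the 39 tested genes, as log2(CPM + 1), was 5.42, 5.32 and 5.45 in Meninges replicates 1 to 3, 5.06, 4.57 and 4.72 in the diaphragm libraries and 4.54, 3.81 and 3.30 in the skin libraries. The 3 tissues did not overlap on this measure, but they did relative to all genes. Over all 14831 genes tested the same median ran from 3.71 to 3.85 in meninges, 3.47 to 3.56 in diaphragm and 3.19 to 3.57 in skin. The members' median less that of all genes was 1.71, 1.47 and 1.68 in Meninges replicates 1 to 3, 1.59, 1.03 and 1.16 in the diaphragm libraries and 1.21, 0.24 and 0.10 in the skin libraries. On this scale Diaphragm replicate 1 was above Meninges replicate 2, and Skin replicate 1 was above Diaphragm replicates 2 and 3. Of the 39 genes, 26 had their highest tissue mean in meninges (66.7%, against 34.7% of all genes tested), 8 in diaphragm (20.5% against 31.2%) and 5 in skin (12.8% against 34.1%). The lowest mean was in skin for 27 (background 36.5%), in diaphragm for 9 (background 32.6%, counting Isg20, at 0 in diaphragm and skin) and in meninges for 3 (background 30.9%). In bulk samples, fewer cells that carry a transcript and less transcript per cell cannot be told apart.

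Few of these differences passed the test gene by gene. By the edgeR quasi-likelihood test with Benjamini-Hochberg adjustment over all genes tested, 3 of 39 genes were higher in meninges than in skin (background 0.748% of all genes tested) and none lower (background 0.573%). Between diaphragm and skin, 2 of 39 were higher in diaphragm (background 0.0337%) and none lower (background 0.00674%). Between meninges and diaphragm none was called higher (background 0.169%) or lower (background 0.175%). The median log2 fold change over the 39 genes was 1.43 for meninges against skin, 0.86 for diaphragm against skin and 0.38 for meninges against diaphragm, beside 0.08, 0.01 and 0.05 over all genes tested. Without Diaphragm replicate 1 the median was 0.38 for diaphragm against skin and 0.66 for meninges against diaphragm, so the order of these 2 comparisons rested on that library. The fold change was above 0 for 33, 28 and 29 of the 39 genes in these comparisons (background 52.2%, 50.3% and 51.6%). Placing genes that had no count in a group at their lower bound (1 to 3 genes per comparison) could not change these medians, because the bounds also lay above them. The 3 comparisons share libraries, so they are not independent of one another.

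**Figure D2:**
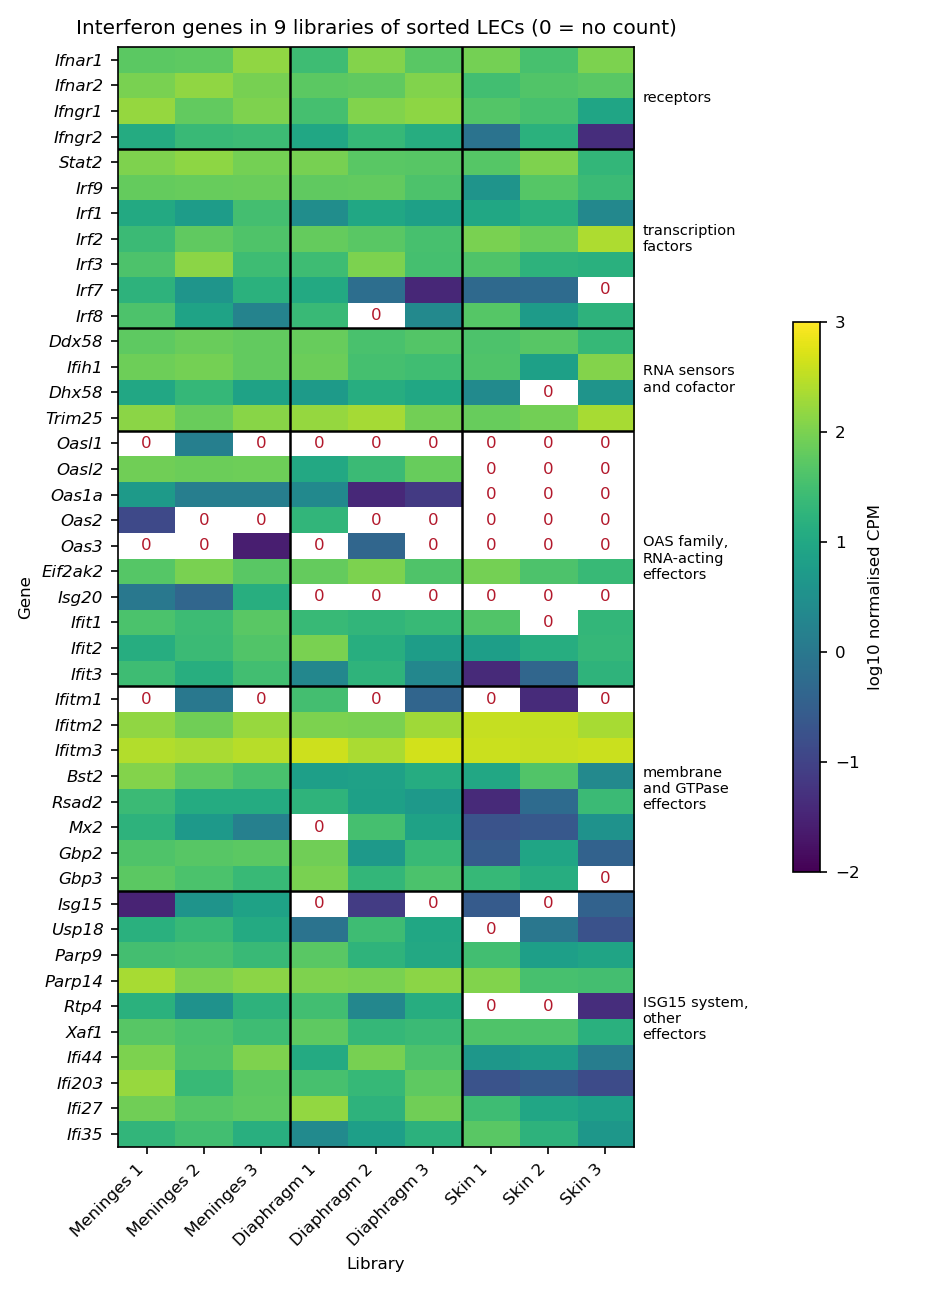
Normalised CPM of the 43 interferon genes (rows, by role) in the 9 libraries (columns), as log10 colour; a red 0 marks a gene without a count. Oasl2, Oas1a, Oas2, Oas3, Oasl1 and Isg20 have no count in any skin library, while Ifitm2 and Ifitm3 are bright in all 9.

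Oasl2 encodes a protein of the 2'-5' oligoadenylate synthetase (OAS) family, whose members respond to double-stranded RNA. Its level was 83.8, 76.6 and 77.6 CPM in Meninges replicates 1 to 3, 10.2, 25.9 and 68.1 CPM in the diaphragm libraries and 0 in each skin library. The meningeal libraries lay close together, the diaphragm libraries spread over a wide range below them, and neither overlapped with skin. Behind the levels stand 8064 counts over the meningeal libraries, 2861 over the diaphragm libraries and none over the skin libraries. Against a floor of 3 counts over the skin group, Oasl2 was at least 10.90 higher in meninges (edgeR adjusted p = 0.00208) and at least 9.71 higher in diaphragm (edgeR adjusted p = 0.0201) on the log2 scale. Meninges against diaphragm did not pass (log2 fold change 1.19, SE 0.84, edgeR adjusted p = 0.784). The difference between meninges and skin held whichever of the 9 libraries was omitted, as did that between diaphragm and skin. The latter was lost with limma voom (adjusted p = 0.0626) and in an edgeR fit of these 2 tissues alone (adjusted p = 0.134).

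Marker sums of other cell types moved with Oasl2 in part. Mural sums were 27.8 to 196 CPM in skin against 271 to 490 in diaphragm and 311 to 1029 in meninges, and blood endothelial sums 655 to 758 against 797 to 1602 and 1147 to 2775, both without overlap of skin with the others, as for Oasl2. Of the 10 blood endothelial markers, 7 had a fold change above 0 in meninges against skin and 3 below. Sox17 and Esm1 had no count in skin, like Oasl2. Their means were 36.3 and 81.0 CPM in meninges and 3.43 and 0.258 in diaphragm. Emcn and Cldn5 went the other way, with their highest tissue means in skin (337 and 221 CPM), where the 10 markers summed to 699 CPM on average. Fibroblast sums of skin and diaphragm overlapped, and leukocyte sums of skin and meninges overlapped. In Meninges replicates 1 to 3, Oasl2 was at 83.8, 76.6 and 77.6 CPM. The fibroblast sums of these libraries were 1998, 8462 and 8583 CPM and the mural sums 311, 1024 and 1029. Their blood endothelial sums were 2775, 1147 and 1533 CPM. The part of fibroblasts, mural cells, blood endothelial cells and leukocytes in the Oasl2 difference was not tested.

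Ifi203 belongs to the PYHIN family of nucleic acid-binding nuclear proteins. It stood at 173, 23.2 and 55.6 CPM in Meninges replicates 1 to 3, 35.5, 22.8 and 58.6 in the diaphragm libraries and 0.193, 0.284 and 0.137 in the skin libraries. Meninges and diaphragm overlapped, and every library of either was above every skin library, where 15 counts were found in all. The log2 fold change was 8.64 for meninges against skin (SE 1.14, edgeR adjusted p = 0.00232) and 7.54 for diaphragm against skin (SE 1.09, edgeR adjusted p = 0.0252). The meningeal call held whichever library was omitted, but not with limma voom (adjusted p = 0.0574). The diaphragm call was lost without Diaphragm replicate 1 (adjusted p = 0.0526), Skin replicate 1 (0.0535) or Skin replicate 3 (0.0717), with limma voom (0.254) and in an edgeR fit of the 2 tissues alone (0.134). Ifi203 lies in a family of near-identical copies, so its count is uncertain.

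Ifi44 encodes a cytoplasmic interferon-induced protein. Its values were 102, 42.9 and 106 CPM in Meninges replicates 1 to 3, 11.5, 92.4 and 40.6 in the diaphragm libraries and 4.53, 6.09 and 1.33 in the skin libraries. Neither meninges nor diaphragm overlapped with skin, and they overlapped with each other. Meninges was higher than skin (log2 fold change 4.39, SE 0.96, edgeR adjusted p = 0.0421), whereas diaphragm against skin gave 3.59 (SE 0.93, edgeR adjusted p = 0.194). The call depended on most libraries. It was lost without Meninges replicate 1 (adjusted p = 0.0949), 2 (0.0604) or 3 (0.153), Diaphragm replicate 3 (0.0525), or Skin replicate 1 (0.11), 2 (0.0602) or 3 (0.122), and with limma voom (0.155).

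**Figure D3:**
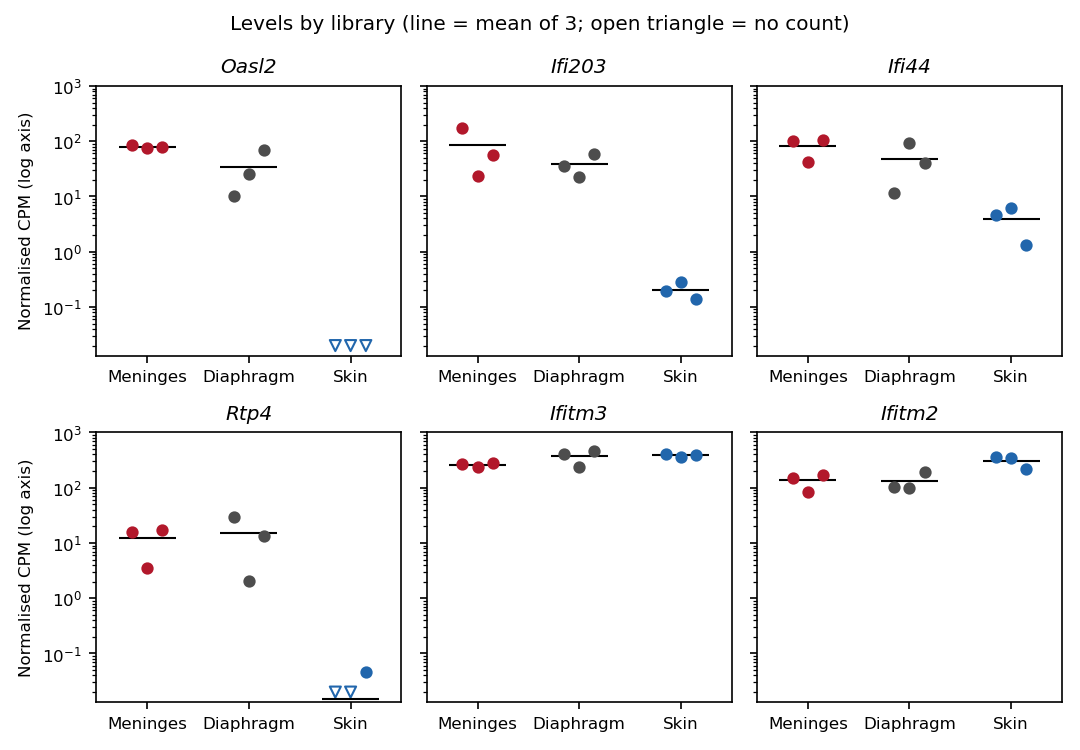
Normalised CPM (log axis) of 6 interferon genes by tissue, with 1 point per library, a line at the mean of 3 and open triangles for libraries without a count. Oasl2, Ifi203, Ifi44 and Rtp4 are lower in every skin library than in any meningeal or diaphragm library, and Ifitm2 is higher in each skin library than in any other library.

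Promoters of these genes are shown because genes of the interferon response are commonly switched on through a short DNA element bound by STAT and IRF factors, the interferon-stimulated response element. RefSeq windows of 250 bases before to 50 bases after the transcription start (GRCm38.p6, another build than the mm9 of the counts) were at hand for 35 of the 44 genes. They were searched on both strands for 9 bases of the element's core, GAAANNGAA or its reverse complement TTCNNTTTC. The core was found for 19 of the 35 genes (54.3%), against 9.76% of all 27025 genes with a window and 8.56% of all 32851 windows. All 3 RNA sensor genes with a window, 6 of 7 membrane and GTPase effectors and 5 of 9 OAS and RNA-acting effectors held it. So did 3 of 5 genes of the ISG15 group and 2 of 7 transcription factors, but none of the 4 receptor genes. The gamma-activated site TTCNNNGAA, bound by STAT dimers, was found for 12 of the 35 (34.3%) against 9.55% of all genes.

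The stretches below run 5′ to 3′ on the gene's strand and end at the base before the start, except where stated; capitals mark matches to the core. The 3 called genes come first, then the 3 others with the most matches in the stretch (ties taken alphabetically). Neighbouring matches overlap by 3 bases in Ifit1, Isg15 and Bst2. The Oasl2 stretch, chr5:114896784-114896933 on the plus strand, holds no match. Ifi44, chr3:151749905-151750060 on the minus strand, has a match from 3 bases before the start to base 6 after it, and its stretch runs that far. Ifi203 has RefSeq starts at 2 places, and the one shown, chr1:173942493-173942642 on the minus strand, is the one with a match. The stretch of the other start, chr1:173942673-173942822 on the minus strand, holds no match. The others are Ifit1 (chr19:34640739-34640888, plus), Isg15 (chr4:156200819-156200968, minus) and Bst2 (chr8:71537473-71537622, minus). A gamma-activated site in Bst2, TTCCAGGAA, overlaps its first match.
Oasl2: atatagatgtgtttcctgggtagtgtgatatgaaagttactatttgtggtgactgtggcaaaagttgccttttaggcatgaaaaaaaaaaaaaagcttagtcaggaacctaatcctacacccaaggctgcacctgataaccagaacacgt
Ifi44: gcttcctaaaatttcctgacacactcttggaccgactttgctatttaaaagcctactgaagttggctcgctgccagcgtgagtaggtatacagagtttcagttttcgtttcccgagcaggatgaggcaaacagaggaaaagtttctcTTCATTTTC
Ifi203: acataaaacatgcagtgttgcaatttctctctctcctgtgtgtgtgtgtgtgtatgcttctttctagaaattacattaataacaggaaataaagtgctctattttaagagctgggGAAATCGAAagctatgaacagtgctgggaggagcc
Ifit1: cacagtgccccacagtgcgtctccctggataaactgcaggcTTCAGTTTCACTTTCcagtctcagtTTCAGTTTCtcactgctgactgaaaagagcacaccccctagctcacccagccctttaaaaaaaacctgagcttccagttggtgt
Isg15: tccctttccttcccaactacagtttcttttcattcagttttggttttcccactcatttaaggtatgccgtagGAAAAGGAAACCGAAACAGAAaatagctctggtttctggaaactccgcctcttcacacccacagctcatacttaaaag
Bst2: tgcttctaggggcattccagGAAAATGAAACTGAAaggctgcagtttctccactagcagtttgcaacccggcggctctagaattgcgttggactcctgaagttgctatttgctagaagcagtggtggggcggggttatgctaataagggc
Ifit1, with 3 core matches, was not called by edgeR in any comparison. Isg15, also with 3, did not pass the filter, so edgeR could not call it. Oasl2, with none in its window, had the lowest edgeR adjusted p of the 39 interferon genes tested. A match is a description of letters and not a site of binding.

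Among the receptors, both chains of each were detected in all 9 libraries. Ifnar2, a chain of the type I interferon receptor, was at 98.1, 145 and 93.6 CPM in Meninges replicates 1 to 3, 56.2, 60.6 and 115 in the diaphragm libraries and 30.7, 43.8 and 52.8 in the skin libraries. Skin was thus below both other tissues without overlap, but the log2 fold change of 1.40 for meninges against skin did not pass (SE 0.53, edgeR adjusted p = 0.249). Its partner Ifnar1 ranged from 54.5 to 146 CPM in meninges, 28.2 to 117 in diaphragm and 35.3 to 105 in skin, with all tissues overlapping. Ifngr1, the ligand-binding chain of the interferon gamma receptor, was at 160, 63.3 and 107 CPM in meninges, 32.9, 112 and 142 in diaphragm and 45.6, 35.2 and 8.82 in skin. The meningeal libraries did not overlap with skin (log2 fold change 1.88, SE 0.72, edgeR adjusted p = 0.254). Ifngr2, the signalling chain, varied most within skin, from 0.0457 to 15.3 CPM.

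The factors that carry the signal to the nucleus were present in each tissue. Stat2, which joins IRF9 in the complex formed after type I interferon, was at 106, 141 and 91.0 CPM in Meninges replicates 1 to 3, 92.4, 53.4 and 50.6 in the diaphragm libraries and 47.6, 106 and 20.4 in the skin libraries. Skin overlapped with both other tissues. Irf9 was the most even gene in meninges, at 67.0, 67.9 and 72.5 CPM, against 60.6, 61.8 and 40.5 in diaphragm and 3.91, 47.3 and 25.8 in skin. Each meningeal library lay above each of the other 6, yet the fold changes were small beside their errors (log2 0.35, SE 0.77 against diaphragm; 1.43, SE 0.78 against skin), and neither passed (edgeR adjusted p = 0.969 and 0.473).

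Irf2, a factor that can antagonise activation by IRF1, had the opposite order. Its levels were 25.2, 61.5 and 42.8 CPM in Meninges replicates 1 to 3, 65.9, 52.6 and 35 in diaphragm and 97.1, 70.3 and 245 in skin. Each skin library was above all others, but neither meninges (log2 fold change -1.67, SE 0.61, edgeR adjusted p = 0.236) nor diaphragm (-1.43, SE 0.61, edgeR adjusted p = 0.389) passed against skin. Irf7, which amplifies type I interferon production, was at 17.3, 4.12 and 15.9 CPM in meninges, 11.0, 0.644 and 0.0358 in diaphragm and 0.503, 0.568 and 0 in skin. The meningeal libraries were above skin without overlap, and the difference did not pass (log2 fold change 5.10, SE 2.48, edgeR adjusted p = 0.391). Irf8, best known from myeloid cells, ranged from 1.72 to 40.5 CPM in meninges, 0 to 25.0 in diaphragm and 5.52 to 48.5 in skin. Its highest value, 48.5 CPM, was in Skin replicate 1, where the leukocyte marker sum was 0.348 CPM and Ptprc had no count. Which cells the Irf8 reads came from was not tested. Irf1 and Irf3 overlapped between all tissues.

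No gene of the RNA sensors passed in any comparison by edgeR. Ddx58, which encodes the sensor RIG-I, was at 58.2, 73.1 and 64.2 CPM in Meninges replicates 1 to 3, 67.9, 36.0 and 46.9 in diaphragm and 39.6, 51.4 and 22.1 in skin. Ifih1, which encodes MDA5, the sensor of long double-stranded RNA, was at 77.9, 90.3 and 63.7 CPM in meninges, 75.0, 33.7 and 29.9 in diaphragm and 41.3, 6.90 and 120 in skin, where replicates 2 and 3 differed most. Trim25, a ubiquitin ligase that assists RIG-I, stood at 138, 72.0 and 128 CPM in meninges, 165, 213 and 85.7 in diaphragm and 68.3, 84.4 and 220 in skin. All 3 genes overlapped between diaphragm and skin. Dhx58, which encodes the regulator LGP2, was lower, at 7.77 to 21.1 CPM in meninges, 5.42 to 12.8 in diaphragm and 0 to 3.93 in skin. It separated skin from both other tissues without overlap without passing (edgeR adjusted p = 0.643 against meninges).

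Among the RNA-acting effectors other than Oasl2, the remaining OAS family genes were at low levels. Oas1a, a synthetase of 2'-5' oligoadenylates, had 5.35, 1.41 and 1.37 CPM in Meninges replicates 1 to 3, 2.40, 0.0379 and 0.0716 in diaphragm and no count in skin. It was at least 6.03 higher in meninges than in skin on the log2 scale (edgeR adjusted p = 0.212). Oas2 had 522 counts in Diaphragm replicate 1, 4 in Meninges replicate 1 and none in the other 7 libraries, Oas3 had at most 12 counts in any library, and Oasl1 had 46 counts in Meninges replicate 2 alone. These 3 genes did not pass the filter. Isg20, an RNA exonuclease, was found in meninges alone, at 1.0, 0.437 and 13.4 CPM. It was at least 7.07 higher than in diaphragm and at least 6.90 higher than in skin on the log2 scale, and neither passed (edgeR adjusted p = 0.349 and 0.227).

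Eif2ak2, which encodes the translation-blocking kinase PKR, was at 48.3, 99.9 and 52.0 CPM in Meninges replicates 1 to 3, 65.7, 103 and 41.9 in diaphragm and 92.1, 39.8 and 23.0 in skin, with full overlap. The IFIT proteins bind foreign RNA ends and block their translation. Ifit1 stood at 39.2, 27.4 and 53.6 CPM in meninges, 22.9, 19.3 and 23.1 in diaphragm and 44.6, 0 and 20.9 in skin. The meningeal and diaphragm libraries did not overlap, and the fold change did not pass (log2 0.88, SE 1.40, edgeR adjusted p = 0.949). Ifit2 was highest in Diaphragm replicate 1, at 100 CPM, beside 13.6 and 6.05 in the other diaphragm libraries. Ifit3 was at 13.5 to 30.4 CPM in meninges, 2.03 to 17.5 in diaphragm and 0.0387 to 18.1 in skin. It has a near-identical copy, Ifit3b, and its count is uncertain.

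The membrane proteins IFITM2 and IFITM3, which hinder entry of enveloped viruses, had their lowest tissue mean in meninges or diaphragm and not in skin. Ifitm3 was at 264, 236 and 284 CPM in Meninges replicates 1 to 3, 414, 237 and 459 in diaphragm and 404, 357 and 399 in skin. Every skin library was above every meningeal library, with a fold change that did not pass (log2 -0.56, SE 0.33, edgeR adjusted p = 0.513). Ifitm2 measured 149, 84.3 and 173 CPM in meninges, 102, 99.8 and 197 in diaphragm and 356, 352 and 219 in skin. All 3 skin libraries were above the other 6, but neither meninges (log2 fold change -1.19, SE 0.43, edgeR adjusted p = 0.227) nor diaphragm (-1.22, SE 0.43, edgeR adjusted p = 0.341) passed against skin. Per kilobase of exon (GENCODE vM21 lengths), Ifitm3 and Ifitm2 had the highest levels of the set in each tissue, at 385 and 207 CPM per kilobase in meninges, 545 and 203 in diaphragm and 570 and 472 in skin. The next gene was Bst2 in meninges, at 78.1, Ifi27 in diaphragm, at 58.9, and Trim25 in skin, at 21.6 CPM per kilobase. The third family gene, Ifitm1, had 879 counts in Diaphragm replicate 1 and between 0 and 32 in every other library. IFITM genes are similar in sequence, so counts may be split between them.

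Bst2 encodes tetherin, which holds budding virus at the cell surface, and among the 39 tested genes with counts in both tissues it had the highest fitted fold change of meninges over diaphragm. Its values were 118, 56.6 and 36.7 CPM in Meninges replicates 1 to 3, 6.78, 7.42 and 12.5 in diaphragm and 9.87, 43.5 and 2.24 in skin. Meninges did not overlap with diaphragm and overlapped with skin through Skin replicate 2. The fold change against diaphragm did not pass (log2 2.99, SE 1.06, edgeR adjusted p = 0.348).

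The guanylate-binding proteins are GTPases induced most by interferon gamma. Gbp3 was at 55.3, 38.3 and 23.9 CPM in Meninges replicates 1 to 3, 100, 20.9 and 38.4 in diaphragm and 22.3, 13.1 and 0 in skin. Gbp2 was at 41.8, 49.7 and 54.8 CPM in meninges, 84.1, 5.15 and 22.9 in diaphragm and 0.271, 8.69 and 0.366 in skin. Skin was below meninges without overlap for both, and neither passed (Gbp2 log2 fold change 3.97, SE 1.42, edgeR adjusted p = 0.226). Rsad2, which encodes the antiviral enzyme viperin, was at 11.7 to 26.1 CPM in meninges and at 0.0387, 0.568 and 25.2 in Skin replicates 1 to 3, so 1 skin library matched the meningeal level. Mx2, a dynamin-like GTPase, ranged from 0 to 33.2 CPM over the 9 libraries.

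ISG15 is a ubiquitin-like protein and USP18 the protease that removes it and dampens receptor signalling. Isg15 had few reads, with 1, 123 and 288 counts in Meninges replicates 1 to 3, 2 over all diaphragm libraries and 15 over skin, and did not pass the filter. Usp18 was at 14.9, 23.4 and 11.6 CPM in meninges, 0.811, 28.2 and 9.60 in diaphragm and 0, 0.974 and 0.183 in skin. Meninges and skin did not overlap, without passing the test (log2 fold change 5.42, SE 2.06, edgeR adjusted p = 0.254). Parp14, a large mono-ADP-ribosyltransferase, stood at 225, 102 and 138 CPM in meninges, 108, 96.8 and 137 in diaphragm and 112, 34.4 and 31.5 in skin, where replicate 1 reached the other tissues. Ifi27, of a family of small hydrophobic interferon-induced proteins, was at 81.0, 49.1 and 56.3 CPM in meninges, 158, 17.5 and 83.9 in diaphragm and 27.5, 9.17 and 6.76 in skin. Its log2 fold change was 2.10 for meninges against skin (SE 0.83, edgeR adjusted p = 0.27) and 2.58 for diaphragm against skin (SE 0.84, edgeR adjusted p = 0.318).

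Rtp4, an interferon-induced chaperone of membrane receptors, was at 15.9, 3.47 and 17 CPM in Meninges replicates 1 to 3, 30.1, 2.05 and 13.3 in diaphragm and 0, 0 and 0.0457 in skin, where it had 1 count. The log2 ratio of meninges to skin was 9.81, with a 95% exact Poisson interval of 7.33 to 15.12 that covers counting error of the skin count only. That of diaphragm to skin was 10.11 (7.63 to 15.41). Neither passed by edgeR with the filter (adjusted p = 0.0728 and 0.165). The DESeq2 Wald test and an edgeR fit without a filter called both, and limma voom called the first. Parp9, Xaf1 and Ifi35 overlapped between meninges and skin.

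**Figure D4:**
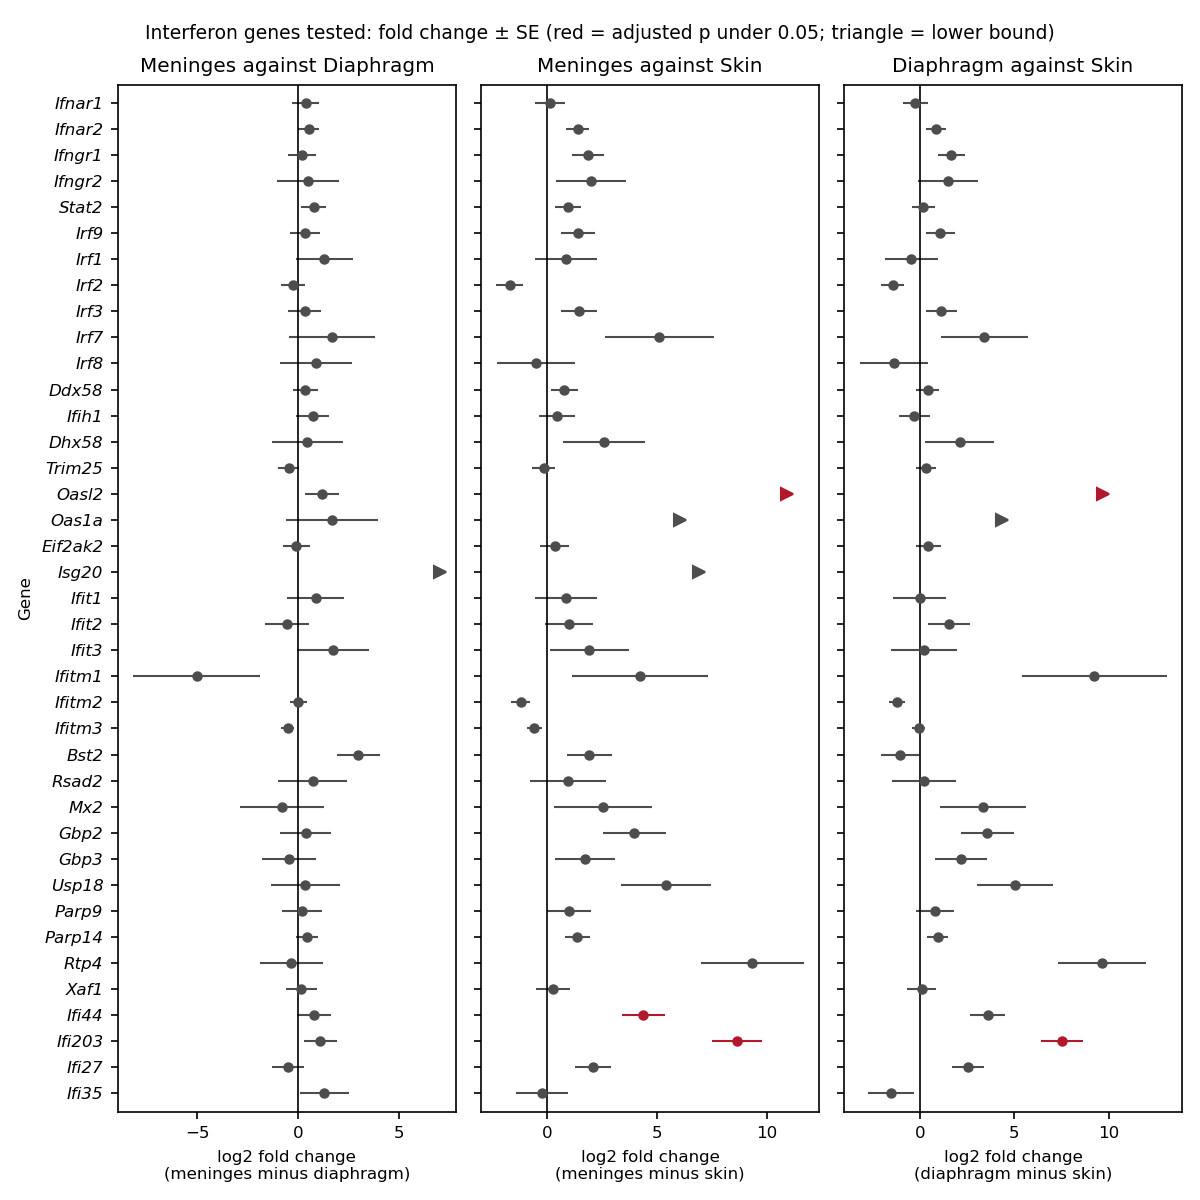
Log2 fold change with its standard error (horizontal axis) for the 39 interferon genes tested, in the 3 comparisons; red marks an adjusted p under 0.05 and a triangle a lower bound where a group had no count. Against skin most points lie to the right of 0, and Irf2, Irf8, Ifitm2, Ifitm3 and Ifi35 lie to the left in both comparisons with skin.

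Counting lack of overlap in place of the test, 16 of the 39 genes were higher in every meningeal library than in every skin library (background 12.9% of all genes tested) and 3, Irf2, Ifitm2 and Ifitm3, were lower (background 7.34%). For diaphragm against skin, 7 were higher in this sense (background 7.54%) and 2 lower (background 5.95%), and for meninges against diaphragm 5 were higher (background 10.4%) and none lower (background 6.7%). The 5 were Irf9, Oasl2, Isg20, Ifit1 and Bst2. Isg20 had counts in meninges alone and so passed the filter through that tissue. Oas1a also needed meningeal libraries to pass. It had 171, 45 and 52 counts in Meninges replicates 1 to 3, 65, 1 and 2 in diaphragm and none in skin. The place of Isg20 and Oas1a in the counts of this paragraph, and among genes highest in meninges, is not independent of the filter. At an unadjusted p under 0.05, 12 genes were higher (background 8.93%) and 2 lower (background 4.9%) in meninges than in skin. In diaphragm against skin 10 were higher (background 6.82%) and 2 lower (background 4.97%). In meninges against diaphragm 2, Isg20 and Bst2, were higher (background 6.01%) and none lower (background 4.05%). For meninges against diaphragm, where edgeR called none, limma voom called none and the DESeq2 Wald test called 2 of 43, Isg15 and Isg20, beside 4.05% of all 23018 genes called by it in either direction.

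**Figure D5:**
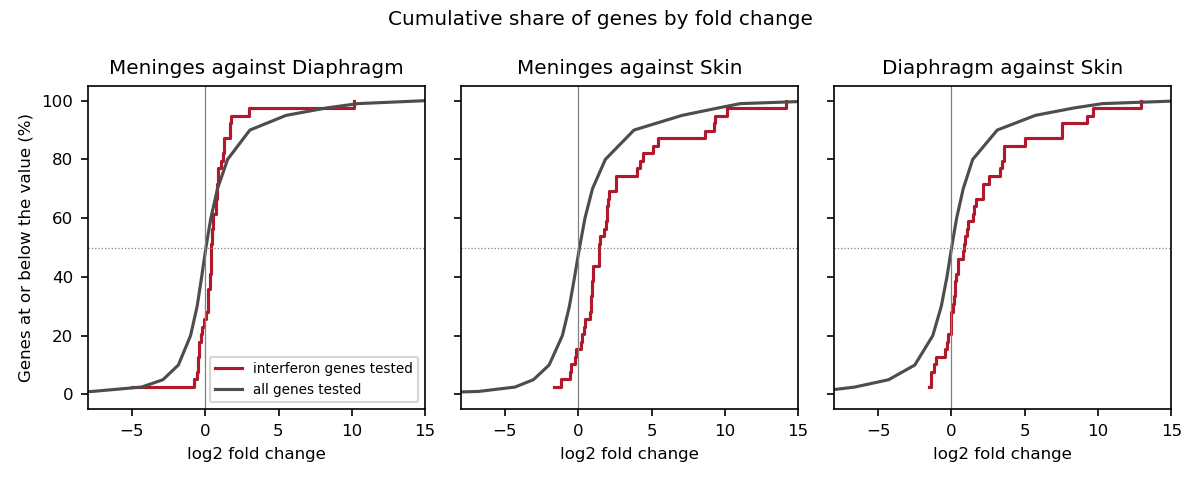
Cumulative share of genes (vertical axis, percent) at or below a log2 fold change (horizontal axis) for the 39 interferon genes (red) and all 14831 genes tested (grey); fitted values are drawn also for genes without a count in 1 group. The red curve crosses 50% at 0.38, 1.43 and 0.86 and the grey curve at 0.05, 0.08 and 0.01, from left to right.

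Detection of genes varied between libraries. Genes with at least 1 count numbered 16412 to 17245 in meninges, 14396 to 15353 in diaphragm and 13241 to 15550 in skin. In each skin library 6 of the 39 interferon genes (15.4%), not the same 6, had no count. Of all genes tested, 16.9%, 10.5% and 20.3% had none in Skin replicates 1 to 3. Without a count in any skin library were 3 of the 39 (7.69%), against 4.46% of all genes tested. In meninges 1, 0 and 1 of the 39 (0 to 2.56%) were without a count, against 6.51 to 7.09% of all genes tested. In diaphragm 2, 3 and 1 were (2.56 to 7.69%), against 11.2 to 15%. The part of this difference in detection in the levels of the set was not tested. Spread between replicates, as the median coefficient of variation of CPM, was 0.408 in meninges, 0.645 in diaphragm and 0.814 in skin for the interferon genes and 0.667, 0.81 and 0.862 for all genes tested.

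Other genes of the pathway were taken from 4 fixed lists. Of the ligands, the interferon genes proper, Ifnk was analysed here, with 2, 22 and 33 counts in Meninges replicates 1 to 3 and none elsewhere, and it did not pass the filter. Among 11 signalling and feedback genes, 9 were tested and none was called in any comparison. Calls were also rare over all genes tested, at 0.748% higher and 0.573% lower in meninges against skin. The receptor kinase gene Jak1 was at 267 to 362 CPM in meninges, 241 to 384 in diaphragm and 314 to 496 in skin, and Stat3, a factor of several cytokine pathways, at 78.8 to 138, 145 to 196 and 127 to 289 CPM. The median log2 fold change of these 9 genes was -0.92 for meninges against skin and 0.05 against diaphragm. Over all genes tested it was 0.08 and 0.05. Of 14 further genes of nucleic acid sensing, 11 were tested and none called. Tlr3, an endosomal sensor of double-stranded RNA, was at 62.6 to 97.7 CPM in meninges, 82.9 to 154 in diaphragm and 68.4 to 187 in skin. The kinase gene Tbk1, which activates IRF3, had 61.4 to 136, 49.1 to 162 and 77.4 to 154 CPM. The median of this list was -0.32 for meninges against skin, beside 0.08 over all genes tested.

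Of 40 further interferon-stimulated genes, 39 were tested and none was called. In meninges against skin 0.748% of all genes tested were called higher and 0.573% lower. The median log2 fold change of these 39 genes was 1.29 for meninges against skin, 1.13 for diaphragm against skin and 0.60 for meninges against diaphragm. Over all genes tested it was 0.08, 0.01 and 0.05. Of the 39 genes, 32, 27 and 26 were above 0 (background 52.2%, 50.3% and 51.6%). In 17 every meningeal library was above every skin library and in 1 below (background 12.9% and 7.34%). For diaphragm against skin 6 were above and 2 below (background 7.54% and 5.95%), and for meninges against diaphragm 6 and 2 (background 10.4% and 6.7%). The members with the highest levels were Samd9l, an antiviral factor, at 104 to 212 CPM in meninges, 137 to 264 in diaphragm and 87.5 to 187 in skin, and Shisa5, at 120 to 192, 74.8 to 176 and 124 to 350 CPM. Both overlapped between all tissues.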

How the data were processed

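Raw counts for each Ensembl gene were deposited by the authors; per the submitters' processing notes FastQC, STAR and HTSeq were used on mm9. RNA was extracted with the PicoPure kit and, per the labels' protocols, amplified with the Ovation RNA-Seq System V2. For tool versions, annotation, strand and multiply matching reads, the settings were not given in the sources used here. Overlapping genes and near-identical copies therefore have uncertain counts.

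Counts were filtered with filterByExpr (14831 genes left), scaled by TMM and fitted with edgeR 4.0.16 (R 4.3.3, quasi-likelihood, 1 mean per tissue, 9 libraries together). Genes were called at an adjusted p under 0.05 (Benjamini-Hochberg, all genes tested). The common biological coefficient of variation (1.243) was high, and large differences could fail, such as Usp18 in meninges against skin (log2 fold change 5.42, SE 2.06). Genes with a small error could pass at less, as Lyve1 did there (-1.63, SE 0.34, edgeR adjusted p = 0.0326). Floors of 3 counts per group cover counting error only. No 2 replicates agreed within counting error (chi-square over its degrees of freedom at least 308.3). Code was tested on simulated data.

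The members and lists were chosen with earlier results of these data known. Values per library were fixed by rule for called members, for the 3 members per role with the highest average level and for members without a count in a tissue and above 10 CPM in another; other named members were chosen after their values were seen. limma 3.58.1 and DESeq2 1.42.0 served as alternatives. Promoter sequences are from RefSeq (GRCm38.p6). Mx1 is not reported here.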

Additional observations from a re-analysis of the deposited data

How the results depend on the processing

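For meninges against skin, 3 members were called higher, and 2 to 3 when 1 library was left out in turn. The count was 9 of 43 with the DESeq2 Wald test, 4 of 43 without a filter and 2 of 39 with limma voom, but these called 6.33%, 2.65% and 2.79% of all genes in either direction, against 1.32% in the edgeR fit with the filter. For diaphragm against skin, 2 were called higher, 1 to 2 with 1 library left out, 5 of 43 with the DESeq2 Wald test (4.62% of all genes called), 4 of 43 without a filter (1.33%), 0 with limma voom (0.00674%) and 0 in a fit of these 2 tissues alone (0.00792%), against 0.0405%. For meninges against diaphragm the count of members higher was 0, also in all 9 fits without 1 library, and 2 with the DESeq2 Wald test. No member was called lower in any comparison under any setting run. The median log2 fold change of members ranged with 1 library left out from 1.26 to 1.78 (meninges against skin), 0.38 to 1.02 (diaphragm against skin) and 0.37 to 0.66 (meninges against diaphragm), the 0.38 and the 0.66 both without Diaphragm replicate 1. With the replicate number as a block, the calls were 3, 2 and 0 members and the medians 1.71, 1.2 and 0.51. Same-numbered libraries did not deviate together (correlations -0.0205 to 0.0512). With so wide a spread between replicates, a shared effect could be hidden, so whether the numbers pair libraries stays unknown. DESeq2 size factors, a filter of 50 counts in 3 libraries and the block left the same counts of called members. With replicate 1 as the lone meningeal library, added after the data were seen, 2 members (Oasl2, Ifi203) were called over skin and Ifi44 was not (adjusted p = 0.206); the spread then comes from the other tissues, and the lone library is assumed to vary like them.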
